A study of Mus musculus with 12 samples.

Results

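The genes described here are the FANCI-FANCD2 pair, the enzyme that carries ubiquitin to it, and the nucleases and partners that cut DNA around an interstrand crosslink. They are 10 genes chosen by name, Fanci, Fancd2, Ube2t, Rfwd3, Slx4, Slx1b, Mus81, Ercc4, Ercc1 and Fan1, of the 35999 gene names in the expression table. Their RNA was measured in bone marrow LSK cells, the lineage-negative, Sca-1-positive, Kit-positive population that holds the hematopoietic stem and progenitor cells, of mice labelled WT and mice labelled Fancg KO. There was 1 library per mouse, with 6 libraries labelled WT and 6 labelled KO, and the titles number both sets from 2 to 7. No treatment is given for any of the 12 mice. The methods name the knockout mice as Fancg-/-, obtained from F. Arwert. The deleted exons, age, sex and strain are not given in the sources used here, nor is whether mice with the same number were littermates. The comparison between the labels asks whether loss of FANCG, a subunit of the ubiquitin ligase that acts on FANCI and FANCD2, comes with a different RNA level of the genes that act after it.

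In the Fanconi anemia pathway, a core complex that contains FANCG and the ubiquitin ligase FANCL works with the E2 enzyme UBE2T to attach ubiquitin to FANCD2 and FANCI, which then clamp onto DNA at a stalled fork. The scaffold SLX4 brings the nucleases ERCC4-ERCC1, MUS81 and SLX1 to the crosslink, FAN1 is a further nuclease with a ubiquitin-binding domain, and RFWD3 is a ubiquitin ligase that acts on RPA. Blood stem cells lacking this pathway are lost with time, and bone marrow failure is a leading feature of the human disease.

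Reference promoters are shown for Ube2t and Rfwd3, whose windows alone held 0 annotated untranslated bases. Both also hold several CCAAT boxes. Of the 10, Ube2t had the largest difference between the labels and Rfwd3 the steadiest signal, and no link of these to the boxes was tested. The sequences are those of RefSeq on GRCm38.p6, from 250 bases before the transcript start up to the base before it, and CCAAT, or ATTGG where the box lies on the other strand, is in capitals. The Ube2t stretch is chr1:134962315-134962564 on the plus strand and the Rfwd3 stretch is chr8:111300223-111300472 on the minus strand, each written 5′ to 3′ in the direction of its gene.
Ube2t: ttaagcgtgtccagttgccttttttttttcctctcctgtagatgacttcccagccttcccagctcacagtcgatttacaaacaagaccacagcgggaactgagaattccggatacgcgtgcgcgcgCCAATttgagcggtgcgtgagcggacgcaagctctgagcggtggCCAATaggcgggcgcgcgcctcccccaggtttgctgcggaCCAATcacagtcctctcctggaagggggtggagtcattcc
Rfwd3: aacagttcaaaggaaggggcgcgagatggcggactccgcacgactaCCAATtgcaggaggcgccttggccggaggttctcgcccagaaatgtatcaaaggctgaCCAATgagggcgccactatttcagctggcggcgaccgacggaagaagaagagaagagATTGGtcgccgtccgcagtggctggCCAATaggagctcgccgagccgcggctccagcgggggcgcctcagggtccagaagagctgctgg

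Ube2t held 3 CCAAT boxes, whose first bases lay 124, 80 and 40 bases before the start. Rfwd3 held 4, at 204, 146, 89 and 64 bases before the start. At least 3 such boxes, on either strand, were found in 805 of 27025 mouse promoters of the same length (2.98%) and at least 1 in 34.5%. Of the 9 genes with a promoter in the table (Fancd2 had none), 5 held at least 1 box, the others being Slx4, Slx1b and Ercc4. The letters TTTCCCGC, TTTGGCGC, TTTCGCGC and TTTGCCGC, forms of the E2F motif, were searched on both strands and found in 0 of the 9 windows and in 1.91% of all promoters. The letters GGGCGG, a GC box, were found on either strand in 3 of the 9 and in 32.9% of all promoters. These are matches of letters in the reference and say nothing of binding in LSK cells. Annotated untranslated bases, of any gene, filled 250 of the 250 for Slx1b and Ercc1, 208 for Fanci and 52 for Ercc4. They numbered 24 for Fan1, 23 for Mus81, 2 for Slx4 and 0 for Ube2t and Rfwd3. The Fanci, Ercc1 and Slx4 windows lay inside the annotated span of their genes. The counts over the 9 are thus not of upstream sequence alone.

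The signal of a gene was taken as its estimated number of reads divided by 1 size factor per library. The most frequent value in a library, taken as the worth of 1 read, put the depth at 2021706 to 2471413 reads in the 8 libraries numbered 2 to 5 and at 1235110 to 1484209 reads in the 4 numbered 6 and 7. In units of 1 read, a value of 1.12 recurred for Fancd2os in WT 2, WT 6, WT 7 and KO 6. A value of 6.34 recurred in KO 2 and KO 3. Whether a further scaling per gene was applied is not given, so numbers of reads here are approximate. Between the labels, depth gave an exact permutation p of 0.558. Of the 12 LSK markers, which include Kit, Ly6a and Cd34, 11 passed the filter, and their summed signal was 1878 to 2408 with the label WT and 1518 to 2224 with the label KO. Of 9 erythroid markers 0 passed, with Slc4a1 at 0 throughout. Of 7 T and NK cell markers 1 passed (Nkg7), and Trac was at 0 throughout. Of the markers of other lineages, 3 of 9 granulocyte, 4 of 7 monocyte and macrophage and 2 of 7 B cell markers passed. Summed granulocyte markers were 313 to 1945 with the label WT and 412 to 2132 with the label KO. In KO 6 they were above the summed LSK markers (2132 against 1518). Summed megakaryocyte markers, of which 1 of 5 passed the filter (Itga2b), were 23.5 to 56.1 with the label WT and 32.8 to 78.5 with the label KO (exact permutation p = 0.0368). The other summed marker lists had exact permutation p between 0.290 and 0.877, and their part in the results on the 10 genes was not tested. WT 3 and KO 7 held a summed signal of 26.6 to 49.7 for 4 Y-linked genes against 189 to 435 in the other 10 libraries.

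Fancg itself did not separate the labels. Its signal ran from 4.76 to 24.1 with a median of 8.59 in the 6 libraries labelled WT, and from 4.46 to 14.5 with a median of 7.91 in the 6 labelled KO. The ranges overlapped from 4.76 to 14.5, and the exact permutation p was 0.636. The highest value, 24.1, was that of WT 7, and the other WT values were at or below 9.40. KO 2, KO 4 and KO 5 were at 10.6, 11.3 and 14.5, and KO 3, KO 6 and KO 7 at 4.46, 5.24 and 5.07. Since the sources do not give which exons the allele lacks, reads from the rest of the gene do not check the labels, and the libraries are named by label throughout.

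None of the 10 genes differed between the labels beyond the spread between mice. The tests covered the 8887 genes whose signal averaged 10 or more, and 9 of the 10 were among them. Mus81, at a mean of 8.29, was not. By limma 0 of the 9 had an unadjusted p under 0.05, where 326 of the 8887 genes did (3.67%), and 0 of 8887 genes (0%) passed after Benjamini-Hochberg adjustment, the adjusted p of each of the 9 being 0.9996. In 5 of the 9 the mean log2 value was higher with the label KO, against 50.7% of all genes tested, and their median log2 difference was 0.13 against 0.003 for all genes. No overlap between the labels was found in 0 of the 9 and in 8 of 8887 genes (0.09%). With libraries rescaled to the same total, the median of all genes moved to 0.08, 65.3% of genes were higher with the label KO, and 6 of the 9 were. In RNA from sorted cells, fewer cells of a type and less RNA per cell cannot be told apart. The p-values here set the difference between the labels against the spread between these mice, which limma moderates over all genes tested.

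**Figure D1:**
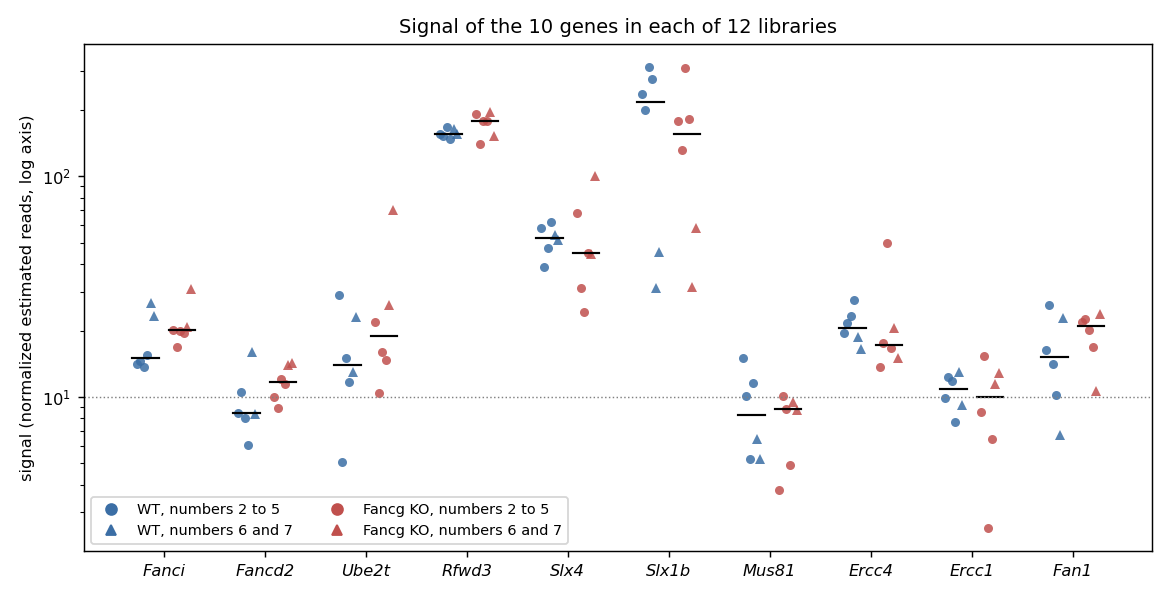
Signal (normalized estimated reads, log axis) of the 10 genes in each of 12 libraries, WT in blue and Fancg KO in red, circles for numbers 2 to 5 and triangles for 6 and 7, with a bar at the median of the 6 libraries of a label and a dotted line at the filter of 10. The labels overlap in every gene, the Rfwd3 points lie within 140.3 to 195, and the Slx1b points split into triangles at 31.2 to 58.2 and circles at 132 to 312.

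The plot of signal by library shows the genes on very different levels, so they were also put on a scale per length of the longest annotated protein-coding transcript. On this scale of signal per kb the median over the 12 libraries was 56.8 for Slx1b, 35.8 for Rfwd3, 13.9 for Ube2t, 8.62 for Slx4, 7.76 for Ercc1, 5.498 for Ercc4, 5.34 for Fan1, 4.25 for Mus81, 4.24 for Fanci and 1.87 for Fancd2. The ubiquitin enzymes Rfwd3 and Ube2t thus had higher medians than the FANCI-FANCD2 pair, with the Mus81 median next to that of Fanci. Neighbours in this order were not always separable. Rfwd3 was above Ube2t in 11 of 12 libraries, Ube2t above Slx4 in 10, and Fanci above Fancd2 in 12. Slx1b was above Rfwd3 in the 8 libraries numbered 2 to 5, at 41.9 to 99.1 per kb, and below it in the 4 numbered 6 and 7, at 9.89 to 18.5, so its median covers sets on different levels. Slx4 was above Ercc1 in 7 libraries, Ercc1 above Ercc4 in 9, Ercc4 above Fan1 in 6, Fan1 above Mus81 in 8 and Mus81 above Fanci in 5, so these neighbours exchanged places between libraries.

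**Figure D2:**
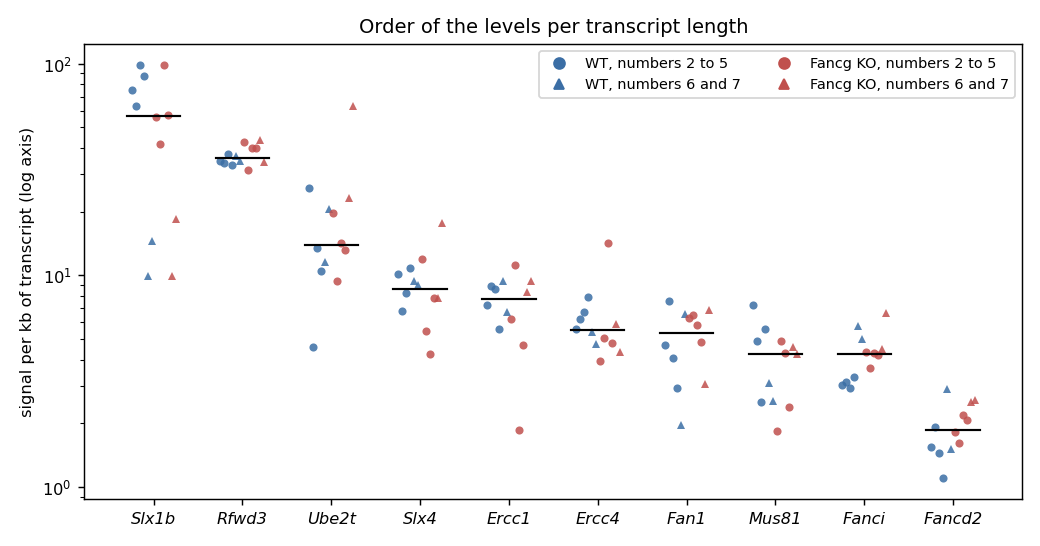
Signal per kb of transcript (log axis) of the 10 genes in order of their median over the 12 libraries (bar), WT in blue and Fancg KO in red, circles for numbers 2 to 5 and triangles for 6 and 7. The medians run from 56.8 for Slx1b to 1.87 for Fancd2.

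Fanci, which encodes the partner that binds FANCD2 in the clamp, lies at chr7:79391929-79450264 on the plus strand (GRCm38, 38 exons in the longest transcript). Signal values ran from 13.7 to 26.6 with a median of 15.02 in libraries labelled WT and from 16.9 to 30.9 with a median of 20.05 in those labelled KO. All 6 KO values lay above the WT median, and 1 lay above every WT value. The log2 difference was 0.26 (SE 0.22, 95% interval -0.21 to 0.73), with a limma p of 0.254 and an exact permutation p of 0.206. It was 0.15 without KO 7, 0.11 without WT 3 and KO 7, and 0.38 without WT 6 (exact permutation p = 0.0541).

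The high WT values of Fanci were those of the libraries numbered 6 and 7. Within numbers 2 to 5 the 4 WT values were 14.0, 14.6, 13.7 and 15.4 and the 4 KO values were 20.2, 16.9, 19.9 and 19.5, so that every KO value was above every WT value, which held for 88 of 8887 genes (0.99%). These values correspond to about 11.7 to 22.8 reads in the WT libraries and 18.7 to 25.5 reads in the KO libraries. The log2 difference among these 8 libraries was 0.38, with a limma p of 0.116 and an exact permutation p of 0.0286, the smallest that 4 against 4 can give. In numbers 6 and 7 the WT values were 26.6 and 23.2 and the KO values 20.8 and 30.9, and the log2 difference was 0.03. The split by number was made after the values were seen, and whether the difference depends on the number was not tested. The 4 libraries numbered 6 and 7 were all above the other 8 for Fanci, as for 127 of 8887 genes (1.43%).

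Fancd2, the other subunit and the main target of the core complex, lies at chr6:113531682-113597017 on the plus strand with 44 exons. It had the lowest signal per kb of the 10, and its values in the libraries correspond to about 7.05 to 15.4 reads. The signal ran from 6.06 to 16.04 with a median of 8.43 in libraries labelled WT and from 8.90 to 14.2 with a median of 11.7 in those labelled KO. All 6 KO values were above the WT median, but WT 6, at 16.04, was above them all. Between the labels the log2 difference was 0.31 (SE 0.26, 95% interval -0.25 to 0.86), with a limma p of 0.261 and an exact permutation p of 0.158. Leaving out 1 library moved it from 0.20 (without WT 5, limma p = 0.468, exact permutation p = 0.312) to 0.45 (without WT 6, limma p = 0.0956, exact permutation p = 0.0152).

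Both genes overlap another gene on the opposite strand, and the sources do not say whether reads were counted by strand. Fanci shares 921 exonic bases with Polg, the mitochondrial DNA polymerase, whose log2 difference was 0.06 (limma p = 0.845, exact permutation p = 0.853). Fancd2 shares 257 exonic bases with Fancd2os, which was below the filter, at 0 to 3.13 with the label WT and 1.26 to 6.84 with the label KO (exact permutation p = 0.0433, or at most about 6.65 reads). Fancd2os was picked out for its place beside Fancd2. Of the distinct 31-base stretches in their transcripts, 14.2% of those of Fanci and 2.83% of those of Fancd2 also occur in another gene.

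Ube2t, the E2 enzyme of the pathway, lies at chr1:134962565-134974162 on the plus strand with 7 exons. Its signal ran from 5.09 to 28.9 with a median of 14.0 in libraries labelled WT and from 10.5 to 70.3 with a median of 18.9 in those labelled KO. The value of 70.3 stood alone in KO 7, and the other 11 values lay between 5.09 and 28.9 with the labels mixed. The log2 difference, 0.57 (SE 0.43, 95% interval -0.34 to 1.49), was the largest of the 10, with a limma p of 0.202 and an exact permutation p of 0.297. It was -0.02 without WT 3 and KO 7, the libraries low in Y-linked transcripts and also the lowest and highest for Ube2t. Within numbers 2 to 5 it was 0.23, and in numbers 6 and 7, with values of 12.9 and 22.9 against 26.0 and 70.3, it was 1.26 with an unadjusted limma p of 0.0415. The smallest exact p that 2 against 2 can give is 0.333, which was the value found.

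Rfwd3, the ubiquitin ligase for RPA, lies at chr8:111270944-111300222 on the minus strand with 13 exons. Signal values ran from 148 to 167 with a median of 155 in libraries labelled WT and from 140.3 to 195 with a median of 178 in those labelled KO. In KO 2, 4, 5 and 6 the signal was above every WT value, while KO 3 lay below all of them and KO 7 among them. The log2 difference was 0.13 (SE 0.12, 95% interval -0.13 to 0.38), the narrowest interval of the 10, with a limma p of 0.303 and an exact permutation p of 0.154. Leaving out 1 library moved it from 0.091 (without KO 6, limma p = 0.481, exact permutation p = 0.284) to 0.19 (without KO 3, limma p = 0.144, exact permutation p = 0.0303). Rfwd3 was among the steadiest genes in the table, with an SD within labels of 0.14 on the log2 scale, and 0.72% of the genes tested had a smaller one. Of its 31-base stretches 28.4% also occur elsewhere, mainly in the pseudogene Gm5903, which was at 0 in 11 libraries and at 1.74 in WT 4.

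Slx4, the scaffold on which the nucleases assemble, lies at chr16:3979105-4003770 on the minus strand with 15 exons. Its signal ran from 38.9 to 61.8 with a median of 52.5 in libraries labelled WT and from 24.2 to 101 with a median of 44.7 in those labelled KO. The KO values spread to both sides, with 2 below and 2 above every WT value. Between the labels the log2 difference was -0.13 (SE 0.28, 95% interval -0.72 to 0.46), with a limma p of 0.644 and an exact permutation p of 0.693.

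Slx1b encodes the SLX1 nuclease and lies at chr7:126689468-126695784 on the minus strand with 6 exons. It varied more with the replicate number than with the label. Its signal in WT 2 to WT 5 was 236, 200, 312 and 276 and in WT 6 and WT 7 it was 31.2 and 45.6. In KO 2 to KO 5 it was 177, 132, 310.4 and 181 and in KO 6 and KO 7 it was 31.4 and 58.2. By the means of log2(signal + 1), numbers 2 to 5 were thus 6.55 times numbers 6 and 7 with the label WT and 4.37 times with the label KO. All 4 libraries numbered 6 and 7 lay below the other 8, which was so for 101 of 8887 genes (1.14%) and for 1 of the 9 genes tested here.

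Between the labels Slx1b ran from 31.2 to 312 with a median of 218 (WT) and from 31.4 to 310.4 with a median of 155 (KO), overlapping over nearly the whole range. The log2 difference was -0.21 (SE 0.62, 95% interval -1.53 to 1.11), with a limma p of 0.739 and an exact permutation p of 0.736. Within numbers 2 to 5 it was -0.41 and in numbers 6 and 7 it was 0.18. Its SD within labels was larger than that of 98.5% of the genes tested.

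Other measures changed with the replicate number too. The 4 libraries numbered 6 and 7 were the shallowest of the 12, and their summed B cell markers were 38.2 to 60.8 against 93.1 to 299 in the others. Granulocyte markers were highest in number 6, at 1945 in WT 6 and 2132 in KO 6. Slx1b shares 360 exonic bases with Bola2 on the opposite strand and 219 with the pseudogene Gm6939 on its own strand. By the means of log2(signal + 1), Bola2 in numbers 2 to 5 was 1.94 times that in numbers 6 and 7 with the label WT, without overlap. With the label KO it was 0.748 times. Gm6939 was at most 4.72 in any library. What the numbers stand for is not given, and the part of depth or of other cells in the Slx1b values was not tested.

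**Figure D3:**
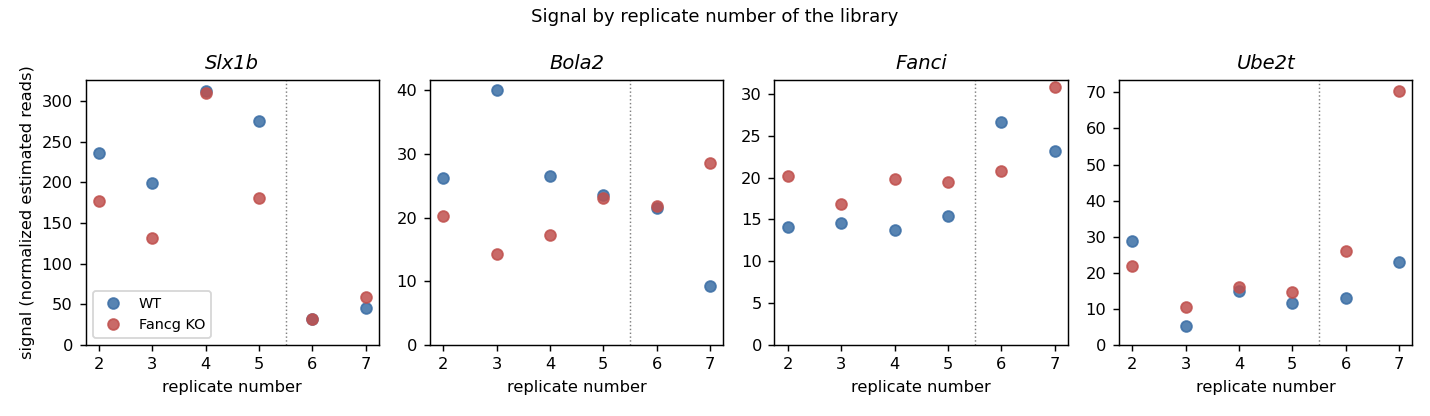
Signal (normalized estimated reads) of Slx1b, Bola2, Fanci and Ube2t by the replicate number of the library, WT in blue and Fancg KO in red, with a dotted line between numbers 5 and 6. Slx1b is at or above 132 on the left of the line and at or below 58.2 on the right in both labels, while Bola2, which overlaps it on the opposite strand, is lower on the right with the label WT (9.25 to 21.5 against 23.6 to 40.1) and not with the label KO (21.8 to 28.6 against 14.3 to 23.1).

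Mus81, the catalytic part of a nuclease that cuts at stalled forks, lies at chr19:5482345-5488402 on the minus strand with 16 exons. It was the only one of the 10 below the filter, at about 3.51 to 17.1 reads in a library. Signal values ran from 5.23 to 15 with a median of 8.27 in libraries labelled WT and from 3.78 to 10.1 with a median of 8.79 in those labelled KO. The labels overlapped, with a log2 difference of -0.17 and an exact permutation p of 0.595, and leaving out 1 library moved the difference from -0.29 (without WT 4) to -0.014 (without KO 2). Mus81 shares 173 exonic bases with Efemp2 on the opposite strand, which was below the filter at 0 to 6.03 with the label WT and 0.505 to 7.20 with the label KO.

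Ercc4, the XPF nuclease that cuts beside the crosslink and also serves nucleotide excision repair, lies at chr16:13109684-13150617 on the plus strand with 11 exons. Its signal ran from 16.6 to 27.6 with a median of 20.6 in libraries labelled WT and from 13.7 to 49.6 with a median of 17.1 in those labelled KO. The value of 49.6 was that of KO 4, and the other 5 KO values were all at or below 20.4. Between the labels the log2 difference was -0.07 (SE 0.27, 95% interval -0.65 to 0.51), with a limma p of 0.798 and an exact permutation p of 0.855. Without KO 4 it was -0.33, with a limma p of 0.120 and an exact permutation p of 0.0476.

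Ercc1, the partner that ERCC4 needs to cut, lies at chr7:19344778-19356524 on the plus strand with 10 exons. Signal values ran from 7.68 to 13 with a median of 10.9 in libraries labelled WT and from 2.55 to 15.4 with a median of 9.98 in those labelled KO. KO 4, the highest library for Ercc4, was the lowest for Ercc1. The log2 difference was -0.28 (SE 0.35, 95% interval -1.03 to 0.47), with a limma p of 0.435 and an exact permutation p of 0.504, and it was 0.001 without KO 4. Ercc1 shares 106 exonic bases with Cd3eap on the opposite strand, whose log2 difference was 0.01 (limma p = 0.958, exact permutation p = 0.961).

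Fan1, the nuclease recruited through its ubiquitin-binding domain, lies at chr7:64346758-64374095 on the minus strand with 14 exons. Its signal ran from 6.75 to 26.0 with a median of 15.2 in libraries labelled WT and from 10.6 to 23.7 with a median of 20.98 in those labelled KO. The KO values lay inside the WT range, with 5 of 6 above the WT median. Between the labels the log2 difference was 0.33 (SE 0.31, 95% interval -0.32 to 0.98), with a limma p of 0.293 and an exact permutation p of 0.329. It was 0.13 without WT 6 and 0.49 without WT 3.

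**Figure D4:**
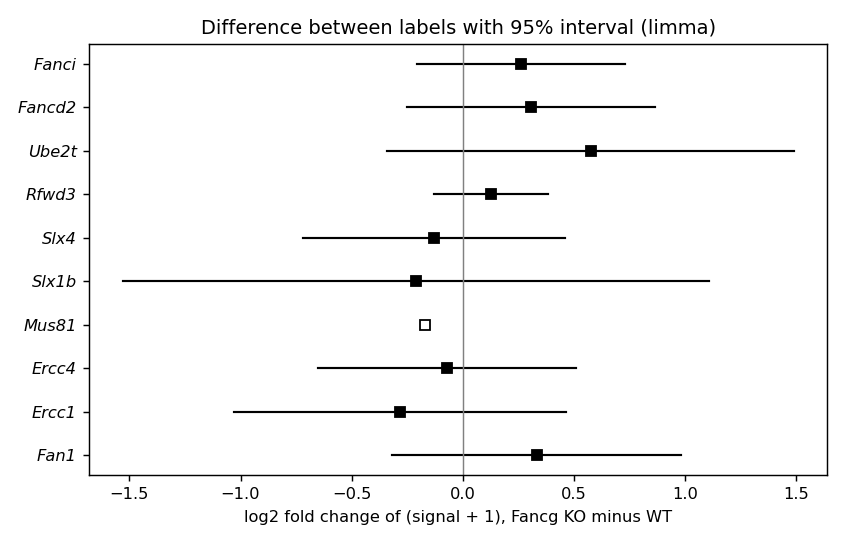
Log2 difference of (signal + 1), Fancg KO minus WT, for the 10 genes, with squares at the difference and lines over the 95% interval from limma (6 libraries a label). Every interval drawn spans 0, from the narrow one of Rfwd3 (-0.13 to 0.38) to the wide one of Slx1b (-1.53 to 1.11), and the open square of Mus81 (-0.17), which was below the filter, has none.

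The plot of differences with their intervals shows how widely the precision varied among the genes. For Rfwd3 the interval ended at 0.38 above and -0.13 below, whereas for Ube2t it reached 1.49 and for Slx1b 1.11 above and -1.53 below. The SD within labels, with a median of 0.41 over all genes tested, was 0.34 for Fanci, 0.35 for Fancd2, 0.86 for Ube2t and 1.32 for Slx1b.

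Across the 12 libraries, with the mean of each label removed, the 36 pairs among the 9 genes had Pearson r from -0.78 to 0.72 with a median of -0.03. These points share library, depth and scaling and are a description. Fanci and Fancd2, whose proteins form 1 complex, had r = 0.65, and Fanci and Ube2t had 0.51. Ube2t and Slx4 had the highest value, 0.72, with both genes at their highest in KO 7. Ercc4 and Ercc1, whose proteins form 1 nuclease, had r = -0.73. Here KO 4 was both the highest library for Ercc4 (49.6) and the lowest for Ercc1 (2.55, about 3.27 reads). How far this r rests on KO 4 was not tested. Fanci and Slx1b had r = -0.78, where the 4 libraries numbered 6 and 7 were the highest for Fanci and the lowest for Slx1b. The genes whose pattern was most like that of Fanci, among the 8886 others tested, were Vps41 (r = 0.93), Nfs1 (0.92) and F2r (0.91), and those most like Fancd2 were Nt5c3 (0.89), Car1 (0.88) and Rpl9-ps6 (0.88).

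Since several of these genes are known to be expressed in dividing cells, each was set against the mean log2 signal of the tested genes of a list of 27 S phase and mitosis genes (exact permutation p = 0.699 between the labels). Over the 12 libraries Fancd2 had the highest Pearson r, 0.60 (permutation p = 0.0406, adjusted over the 9 relations 0.194), with a Spearman rho of 0.66 (p = 0.0242 by permutation, adjusted 0.218). Without KO 3 and KO 7, the libraries farthest from the median of the list, r was 0.50, and within the 8 libraries numbered 2 to 5 it was 0.17. For Fanci r was 0.56 (permutation p = 0.0573, adjusted 0.194) and rho 0.51 (permutation p = 0.0922, adjusted 0.298). For Fanci r was 0.36 without those libraries and 0.28 within numbers 2 to 5. Fan1 had the lowest r, -0.55 (permutation p = 0.0648, adjusted 0.194), with a rho of -0.50 (permutation p = 0.0994, adjusted 0.298), and its r was -0.85 without those libraries and -0.51 within numbers 2 to 5. For Slx1b r was -0.44 over all 12 (rho -0.20) and 0.85 within numbers 2 to 5, and for Ercc1 it was -0.093 (rho 0.12) and -0.69. The other 4 genes had r from 0.13 to 0.51. Of the 9 relations 0 passed the adjustment.

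The other genes of the pathway were counted in the same fit. Of 13 core complex genes 9 were tested, 8 had a positive difference and 0 had an unadjusted p under 0.05, with a median of 0.23. The smallest p was that of Fancm, the DNA translocase that anchors the complex, at 3.71 to 19.3 with the label WT and 6.24 to 24.7 with the label KO, a log2 difference of 0.71 (SE 0.43, limma p = 0.114, exact permutation p = 0.167). The USP1 list held 6 genes, USP1 being the enzyme that removes ubiquitin from FANCD2. All 6 were tested, 4 had a positive difference, and 1 had an unadjusted p under 0.05. That gene was Usp46, a relative of USP1, at 10.8 to 20.4 with the label WT and 16.8 to 38.5 with the label KO. All but 1 of the KO values of Usp46 were above every WT value, and its log2 difference of 0.92 (SE 0.23, limma p = 0.00103, exact permutation p = 0.00649) had an adjusted limma p of 0.9996. Usp1 itself had a log2 difference of -0.12 (limma p = 0.478, exact permutation p = 0.459).

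Of 15 homologous recombination genes 13 were tested, with 6 positive differences, a median of -0.005 and 0 with an unadjusted p under 0.05. The smallest p was that of Palb2, which joins BRCA1 and BRCA2, with a log2 difference of 0.37 (SE 0.24, limma p = 0.145, exact permutation p = 0.199). Among 23 other crosslink nucleases and partners, 21 were tested and 11 had a positive difference. In this list Dclre1c, the Artemis nuclease, was at 12.04 to 25.04 with the label WT and 19.2 to 41.3 with the label KO, and Rpa2, a subunit of the single-strand binding complex RPA, at 20.2 to 33.6 and 13.1 to 21.1. All 6 KO values of Dclre1c were above its WT median and all 6 of Rpa2 were below its WT median. The log2 difference was 0.67 for Dclre1c (SE 0.24, limma p = 0.0122, exact permutation p = 0.0216) and -0.51 for Rpa2 (SE 0.19, limma p = 0.0174, exact permutation p = 0.00866). Both had an adjusted limma p of 0.9996. The limma p of Rpa2 was 0.113 with libraries rescaled to the same total and 0.0524 without WT 4, and in numbers 6 and 7 alone those of Usp46, Dclre1c and Rpa2 were 0.0723, 0.346 and 0.655.

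Of 6 translesion polymerases 4 were tested, 3 with a positive difference and 0 with an unadjusted p under 0.05, and the smallest p was that of Rev1 (0.53, SE 0.30, limma p = 0.0969, exact permutation p = 0.106). Of the 27 S phase and mitosis genes 26 were tested, 16 with a positive difference, a median of 0.03 and 0 with an unadjusted p under 0.05, the smallest being that of Birc5 (0.40, SE 0.28, limma p = 0.171, exact permutation p = 0.229). In all, 3 of 53 other pathway genes tested had an unadjusted p under 0.05, against 3.67% of all genes tested, and 0 passed the adjustment.

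**Figure D5:**
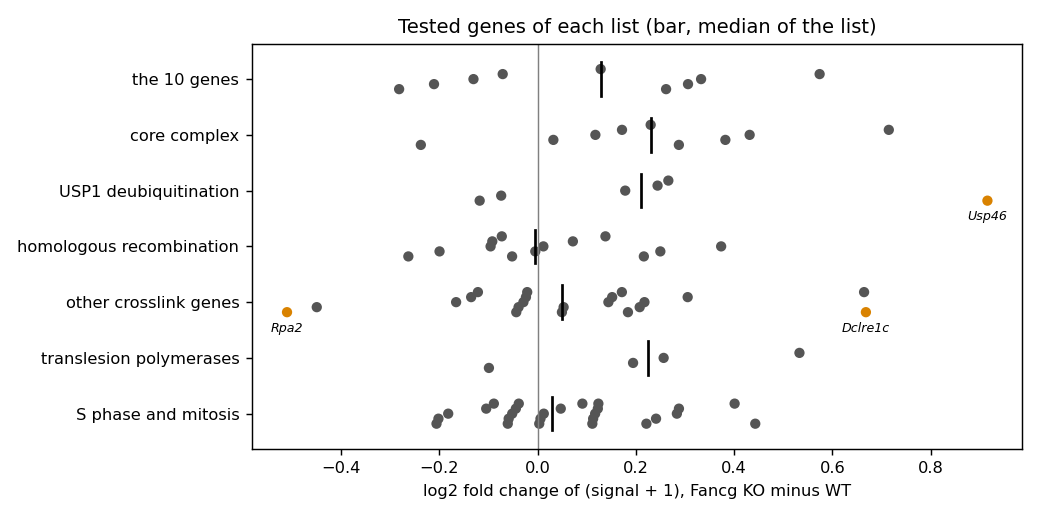
Log2 difference of (signal + 1), Fancg KO minus WT, of each tested gene in the 10 genes and the other lists, 1 point a gene, with a bar at the median of the list. The points of the 10 genes (9 tested) lie between -0.28 and 0.57, and the 3 named points, Usp46, Dclre1c and Rpa2, are those with an unadjusted limma p under 0.05.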

How the data were processed

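RNA from LSK cells of 12 mice had been sequenced with the CATS RNA-seq kit on a NextSeq500. The authors deposited 1 table of signal per gene. From its name and its fractional values these were taken as estimated reads scaled by a size factor for each library. The processing notes name Kallisto without a version. The methods name it with a human genome only, so the mouse build, annotation and use of strand are not given in the sources used here. Whole reads could not be recovered, since 10.4 to 11.4% of values above 0 were whole multiples (within 0.001) of the worth of 1 read, so tests for counts were not used.

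Columns were matched to libraries by title, with 0 left unused. Tests were run on log2(signal + 1) for genes whose signal averaged 10 or more, with limma 3.58.1 in R 4.3.3 (trend, two-sided, no covariate, Benjamini-Hochberg over all 8887 genes), and with two-sided exact permutation tests over libraries, whose smallest p for 6 against 6 is 0.0022. The limma test stands in for Sleuth, which the methods name and which needs the reads. The fit was tested on simulated data. Named were the 10 genes, Fancg, and of each other list every tested gene with an unadjusted p under 0.05 or else that of smallest p. Usp1, the genes sharing exonic bases with the 10, and Gm5903 were named besides. Members and lists were chosen with earlier results of these data known. Correlation tests used 100000 permutations. Gene names were matched to GENCODE M21 (GRCm38), with 35929 of 35999 found. Alternatives were other pseudocounts, filters and scalings, limma without trend, a replicate block and leaving out libraries.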

Additional observations from a re-analysis of the deposited data

Results flagged for a closer look

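A single library stood far from the other 5 of its label in 3 of the 20 sets of 6 checked for the 10 genes (each gene in each label). For normally distributed values chance alone gives about 1 in 20, or 1 such set here. The check was made on the signal without log2, whose skew that rate does not allow for. The Fanci and Ube2t sets also share KO 7, so 3 against 1 cannot be read as an excess. Fanci was at 30.9 in KO 7, where the other libraries labelled KO were at 16.9 to 20.8. Ube2t was at 70.3 in KO 7 against 10.5 to 26.0. Ercc4 was at 49.6 in KO 4 against 13.7 to 20.4. KO 7 was the shallowest library and had the highest summed megakaryocyte markers (78.5), and KO 4 had the highest summed B cell markers (299). The part of these in the values was not tested.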

How the results depend on the processing

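With other pseudocounts, filters, scalings and libraries left out, 0 of the 10 genes, where tested, had a limma p under 0.05, and the number of genes with an adjusted p under 0.05 was 0 throughout. In numbers 6 and 7 alone, a split chosen after seeing the data as was that of numbers 2 to 5, the count was 1 (Ube2t). Genes with an unadjusted p under 0.05 were 836 of 21536 tested with no filter and 91 of 3119 with a mean of at least 50, against 326 of 8887 in the main fit. For the other pathway genes this count, 3, was 0 with a mean of at least 50, 2 to 5 when leaving out 1 library, 5 in numbers 2 to 5 and 1 in numbers 6 and 7. The log2 difference of Ercc4 turned to 0.0065 with libraries of the same total. Without WT 3 and KO 7 it was 0.015 for Ercc4, 0.099 for Slx1b and -0.021 for Ube2t. In numbers 6 and 7 alone it was 0.35 for Slx4, 0.18 for Slx1b, 0.57 for Mus81 and 0.13 for Ercc1. Leaving out 1 library gave -0.63 to 0.16 for Slx1b, -0.33 to 0.031 for Ercc4, -0.35 to 0.054 for Slx4 and -0.44 to 0.00087 for Ercc1, and 0.24 to 0.77 for Ube2t. The causes of these shifts were not tested.

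Same-numbered libraries had correlations of 0.09 to 0.36 in their deviations from the label means, not all above 0.1, and 9 of 12 libraries were closest to their own number, which is a hint from the data and not the design. With a replicate block 0 of the 9 genes had a limma p under 0.05 (Ube2t 0.0569), 476 of all genes did, and 4 of the other pathway genes, the added one being Palb2 (0.0397). Fancd2, Mus81, Ercc1 and Fan1 rest on about 3.27 to 26.9 reads in a library. Fanci lay inside this range, at about 11.7 to 25.5 reads, and Ube2t ran from about 4.42 to 43.8 reads.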
